A study of Mus musculus with 8 samples.

Results

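Interferon-stimulated genes, 41 genes picked by name from the 48709 genes listed in each library, were followed in mouse pancreata. The mice were WT or had *Pfkfb3* targeted in cells of the pancreatic lineage (cKO). Of the 41, 33 were expressed highly enough to be tested, among 11133 genes tested in all. By function the 41 comprised 4 transcription factors, 4 nucleic acid sensors, 4 members of the IFIT family, 5 of the OAS family, *Isg15* and its protease, 12 other antiviral effectors, 5 guanylate-binding proteins, and 5 immunity-related GTPases. None of the 33 changed significantly in any comparison, and 28 of the 41 had a mean level under 1 after scaling between libraries.

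Bulk RNA-Seq was run on pancreas of male mice aged 8 weeks, with 2 libraries described as biological replicates in each of 4 groups. WT saline and cKO saline mice were given saline, and WT FAEE-SAP and cKO FAEE-SAP mice were given palmitoleic acid (POA) with ethanol by intraperitoneal injection, an alcoholic acute pancreatitis model, with tissue taken 24 hours after modelling. FAEE-SAP mice also received saline and the analgesic buprenorphine with the injections. cKO mice were *Pfkfb3* fl/fl; *Pdx1*-Cre, so that Cre, driven by the *Pdx1* promoter, removes exons of *Pfkfb3* in cells of the pancreatic lineage (acinar, ductal, and endocrine cells) and leaves the gene intact in leukocytes, endothelium, and fibroblasts. WT mice were purchased and are not described as littermates of the cKO mice, and mice with Cre alone were not among the groups. Libraries are named here by their labels. Scaled RPKM of *Pfkfb3*, the glycolytic regulator that was targeted, was 1.70 and 1.69 in WT saline, 1.85 and 3.21 in WT FAEE-SAP, 0.880 and 2.10 in cKO saline, and 1.74 and 2.82 in cKO FAEE-SAP. These values cover the whole gene, of which the deleted exons are a small part, and therefore cannot check the genotype labels.

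Interferons are secreted proteins that bind receptors coupled to JAK kinases. Type I and type III interferons lead to a complex that holds STAT2 and IRF9 on interferon response elements, and interferon gamma acts through gamma activated sites. The genes switched on in this way encode sensors of viral nucleic acid, proteins that block viral RNA or particles, and GTPases that attack the vacuoles of intracellular microbes. Many of them rise strongly in leukocytes and in epithelium during infection, which makes them a usual readout of interferon signaling in a tissue.

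The elements that interferon factors read were looked for in the RefSeq promoter table (GRCm38.p6), which gives 250 bases before and 50 after each start. It held 33 promoters for 29 of the 41 members. *Dhx58*, *Zbp1*, *Oas2*, *Usp18*, *Mx1*, *Mx2*, *Rtp4*, *Parp14*, *Ifi27*, *Ifi27l2a*, *Gbp4*, and *Iigp1* had no entry. The core of the interferon response element, GAAANNGAAA on either strand, was present in 19 of the 33 promoters (57.6%), 1 for each of 19 members, and in 3.44% of all 32851 promoters. A gamma activated site, TTCNNNGAA, which reads the same on both strands, was present in 10 of the 33 (30.3%) and in 8.3% of all promoters. Matches within a promoter were allowed to overlap, so a run of repeats counts once per match. The stretches that follow show the core, in capitals, with up to 35 bases on either side, 5′ to 3′ in the direction of transcription, for 7 members of 5 functional groups.
Isg15: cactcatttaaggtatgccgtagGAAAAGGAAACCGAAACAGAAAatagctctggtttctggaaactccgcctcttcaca
Ifit1: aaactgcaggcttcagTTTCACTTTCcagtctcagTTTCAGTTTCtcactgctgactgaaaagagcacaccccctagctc
Ifit3: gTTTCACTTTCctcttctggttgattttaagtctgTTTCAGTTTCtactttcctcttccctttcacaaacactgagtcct
Ifit3b: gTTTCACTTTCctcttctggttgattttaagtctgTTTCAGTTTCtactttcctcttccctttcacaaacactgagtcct
Bst2: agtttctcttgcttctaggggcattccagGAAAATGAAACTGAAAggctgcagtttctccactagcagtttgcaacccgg
Gbp7: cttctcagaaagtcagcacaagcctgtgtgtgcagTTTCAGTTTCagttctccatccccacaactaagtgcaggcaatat
Igtp: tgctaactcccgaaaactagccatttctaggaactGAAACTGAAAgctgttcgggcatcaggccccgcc
The *Isg15* stretch, at chr4:156200840-156200919 on the minus strand, held 3 overlapping copies of the core, the nearest of which began 66 bases before the start. *Ifit1* (chr19:34640769-34640848, plus strand), *Ifit3* (chr19:34583372-34583451, plus strand), and *Ifit3b* (chr19:34607768-34607847, plus strand) each held 2 copies in the reverse orientation, and the 80 bases shown for *Ifit3* and *Ifit3b* were identical. *Bst2* (chr8:71537552-71537631, minus strand) held 2 overlapping copies. *Gbp7* (chr3:142530248-142530327, plus strand) and *Igtp* (chr11:58199487-58199555, plus strand) held 1 each. In GENCODE vM21 none of these 7 stretches overlapped an annotated gene. The sequences describe the genes' starts and carry no measurement from these libraries.

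Levels of the members were low. Values are RPKM, reads per kilobase of exon relative to the mapped reads of the library, divided by a factor for each library so that the typical gene was level across the 8 libraries (scaled RPKM). The mean over the 8 libraries was under 1 for 28 of the 41 members and over 5 for 3 of them, *Ifi27*, *Ifi27l2a*, and *Bst2*. For 21 members no library reached 1. Totals recovered from the low values were 22.8 to 37.6 M reads per library, so that the members had about 3 to 1468 reads per library with a median of 63.7, and 58 of 328 values rested on fewer than 20 reads. The plot of member values by library shows this range gene by gene.

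**Figure D1:**
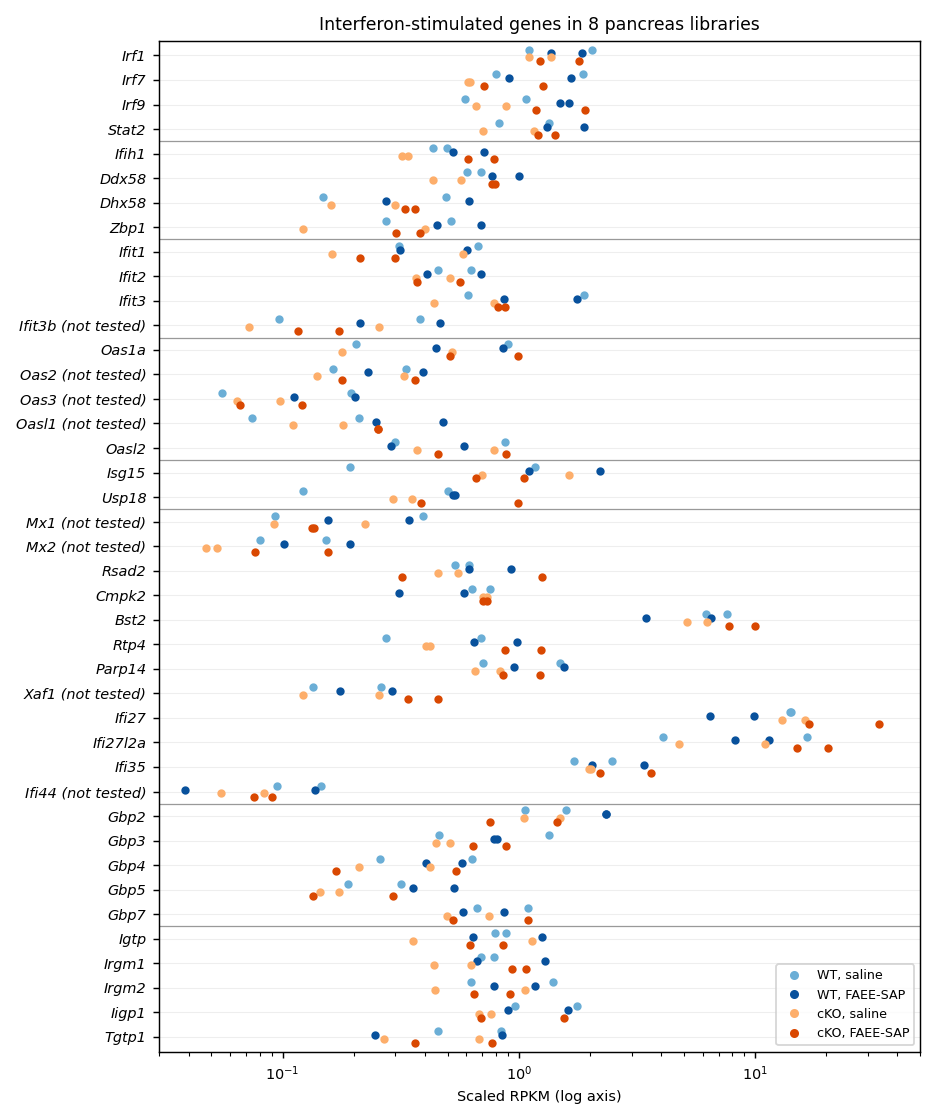
Scaled RPKM (x axis, log scale) of the 41 members (y axis, grouped by function, separated by lines) in each of the 8 libraries, with 1 point per library colored by group. *Ifi27*, *Ifi27l2a*, and *Bst2* stand above 3 in every library, most other members lie between 0.1 and 2, and the points of the 4 groups are intermixed in most rows.

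With 2 libraries per group, precision for these genes was limited. The standard error of a member's log2 fold change between 2 groups had a median of 0.42, against 0.25 over all genes tested. The 95% interval of the log2 fold change lay within 2-fold in either direction for 5 of the 33 members in WT, 2 in cKO, 10 between genotypes after saline, and 8 between genotypes after FAEE-SAP. For the other members a 2-fold change was not excluded by the interval. A change was called where limma gave a p-value under 0.05 after Benjamini-Hochberg adjustment over all genes tested, together with a 2-fold difference or more.

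The transcription factors of the response were not called in any comparison. *Irf1*, which drives many interferon gamma targets, had scaled RPKM of 1.11 and 2.03 in WT saline, 1.85 and 1.37 in WT FAEE-SAP, 1.36 and 1.11 in cKO saline, and 1.79 and 1.23 in cKO FAEE-SAP. *Stat2*, the STAT of type I signaling, had 0.826 and 1.34, 1.88 and 1.32, 1.15 and 0.708, and 1.2 and 1.43 in the same groups. For both genes the ranges of saline and FAEE-SAP libraries of WT overlapped. In cKO those of *Irf1* overlapped, while both FAEE-SAP libraries of *Stat2* were above both saline libraries, an order found for 20.2% of all genes. *Irf9*, the DNA-binding partner of STAT2, was chosen after its values were seen, and it had 0.593 and 1.07 in WT saline, 1.62 and 1.49 in WT FAEE-SAP, 0.879 and 0.658 in cKO saline, and 1.18 and 1.90 in cKO FAEE-SAP. All 4 FAEE-SAP libraries were above all 4 saline libraries. Groups of 2 libraries that do not overlap were common among all genes tested, at 58.5% for FAEE-SAP against saline in WT, 42.1% in cKO, 29.3% between genotypes after saline, and 51.9% after FAEE-SAP. Its log2 difference was 0.88 in WT (SE 0.32, limma adjusted p = 0.124) and 0.89 in cKO (SE 0.32, limma adjusted p = 0.386), so it passed in neither genotype. *Irf7*, which amplifies type I interferon production, ranged from 0.607 in a cKO saline library to 1.87 in a WT saline library. In cKO both FAEE-SAP libraries were above both saline libraries (20.2% of all genes). After saline both cKO libraries were below both WT libraries (13.6% of all genes).

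The 4 sensors of viral RNA and DNA stayed under 1 in every library, and their log2 differences between FAEE-SAP and saline were above 0 in both genotypes, with no call. *Ddx58*, which encodes RIG-I, had scaled RPKM of 0.604 and 0.689 in WT saline, 0.996 and 0.770 in WT FAEE-SAP, 0.569 and 0.435 in cKO saline, and 0.791 and 0.767 in cKO FAEE-SAP. *Ifih1*, which encodes MDA5, had 0.433 and 0.497, 0.715 and 0.528, 0.319 and 0.340, and 0.611 and 0.788. In both genes the FAEE-SAP libraries lay above the saline libraries of the same genotype, an order found for 29.1% of all genes in WT and 20.2% in cKO. The difference in cKO had a log2 value of 0.89 for *Ifih1* (SE 0.24, limma adjusted p = 0.284) and 0.55 for *Ddx58* (SE 0.22, limma adjusted p = 0.424). In WT it was 0.34 for *Ifih1* (limma adjusted p = 0.402) and 0.39 for *Ddx58* (limma adjusted p = 0.297). *Dhx58*, the third RIG-I-like receptor gene, stayed between 0.148 and 0.612, and *Zbp1*, a sensor of Z-form nucleic acid, between 0.122 and 0.690. Both of these reached the minimum for testing only in WT FAEE-SAP, a group whose deposited values are high for nearly all genes.

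The IFIT genes encode proteins that bind viral RNA ends. Groups of the 3 tested overlapped in each comparison except for *Ifit3* between saline and FAEE-SAP in cKO (higher after FAEE-SAP) and *Ifit1* between genotypes after FAEE-SAP (lower in cKO). *Ifit1* had only 1 library at the minimum for testing outside WT FAEE-SAP, so its selection favored that direction. *Ifit3* had scaled RPKM of 0.610 and 1.89 in WT saline, 1.77 and 0.868 in WT FAEE-SAP, 0.782 and 0.439 in cKO saline, and 0.814 and 0.874 in cKO FAEE-SAP. *Ifit2* had 0.456 and 0.624, 0.691 and 0.410, 0.511 and 0.366, and 0.564 and 0.371. The log2 difference between FAEE-SAP and saline in WT was 0.18 for *Ifit3* (95% interval -1.06 to 1.41) and 0.00144 for *Ifit2* (95% interval -0.76 to 0.76). *Ifit1* ranged from 0.162 to 0.668, and *Ifit3b* reached 0.463 at most and was not tested. Of the 50-base stretches of *Ifit3*, 51.2% also occur in *Ifit3b*, so how reads were divided between the 2 genes is uncertain.

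Among the OAS genes, which make the signal for RNase L or are related to those enzymes, only *Oas1a* and *Oasl2* could be tested. *Oas1a* had scaled RPKM of 0.205 and 0.896 in WT saline, 0.857 and 0.444 in WT FAEE-SAP, 0.520 and 0.178 in cKO saline, and 0.992 and 0.510 in cKO FAEE-SAP. *Oasl2* had 0.299 and 0.871, 0.583 and 0.289, 0.781 and 0.370, and 0.884 and 0.453. The 2 libraries of a group lay far apart in most groups, and neither gene was called. *Oas2* reached at most 0.392, *Oas3* 0.202, and *Oasl1* 0.479. *Oas1a* shares 57.6% of its 50-base stretches with *Oas1g*, and its value is uncertain for that reason.

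*Isg15*, a ubiquitin-like modifier and a sensitive marker of type I interferon, had the widest spread within a group as a ratio, in WT saline. Its scaled RPKM was 0.192 and 1.17 in WT saline, 2.19 and 1.11 in WT FAEE-SAP, 1.64 and 0.697 in cKO saline, and 1.05 and 0.658 in cKO FAEE-SAP. The lowest of these rested on about 3 reads. The log2 difference between FAEE-SAP and saline was 1.45 in WT (SE 0.71, limma adjusted p = 0.228) and -0.33 in cKO (SE 0.71, limma adjusted p = 0.892), and the difference between these 2 effects was -1.78 (SE 1.01, limma adjusted p = 0.505). *Usp18*, which removes ISG15 from proteins and restrains the type I receptor, had 0.121 and 0.5, 0.525 and 0.537, 0.352 and 0.292, and 0.385 and 0.986. For both genes the lowest library was WT saline replicate 1. *Usp18* had only 1 library at the minimum for testing outside WT FAEE-SAP, so its selection favored higher values in that group.

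The 3 members with a mean over 5 were all among the other antiviral effectors. *Ifi27*, a small membrane protein induced by type I interferon, had scaled RPKM of 14.0 and 14.2 in WT saline, 9.84 and 6.41 in WT FAEE-SAP, 16.3 and 13.0 in cKO saline, and 16.9 and 33.3 in cKO FAEE-SAP. Both WT FAEE-SAP libraries were below, and both cKO FAEE-SAP libraries above, every other library. After FAEE-SAP it was higher in cKO by a log2 difference of 1.57 (SE 0.34, limma adjusted p = 0.0616), which did not pass. Its log2 differences between FAEE-SAP and saline were -0.82 in WT (limma adjusted p = 0.165) and 0.70 in cKO (limma adjusted p = 0.503), and the difference between the effects was 1.52 (SE 0.48, limma adjusted p = 0.293). When only genes with RPKM of at least 2 in 2 libraries were tested, *Ifi27* passed after FAEE-SAP, as did 4.15% of all genes (log2 difference 1.62, limma adjusted p = 0.0433), as the only such gene among 9 members left.

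*Ifi27l2a*, its neighbor on chromosome 12, had scaled RPKM of 4.08 and 16.6 in WT saline, 11.4 and 8.18 in WT FAEE-SAP, 11 and 4.76 in cKO saline, and 20.3 and 15.0 in cKO FAEE-SAP. Its WT saline libraries lay on both sides of the WT FAEE-SAP libraries. *Bst2*, which encodes tetherin and was chosen after its values were seen, had 6.16 and 7.58, 6.51 and 3.46, 6.24 and 5.14, and 7.75 and 9.95. After FAEE-SAP the log2 difference between cKO and WT was 0.87 for *Bst2* (SE 0.31, limma adjusted p = 0.153). On the values as deposited that difference was -0.083, where the median of all genes was -0.90, so *Bst2* was above the median of all genes on either scale.

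Among the remaining effectors, *Rtp4* had the largest difference in cKO apart from *Ifi27l2a*, and it was chosen after its values were seen. Its scaled RPKM was 0.420 and 0.404 in cKO saline and 0.877 and 1.24 in cKO FAEE-SAP (log2 difference 1.16, SE 0.39, limma adjusted p = 0.360), and 0.273, 0.694, 0.981, and 0.644 in the WT libraries. *Rsad2*, which encodes viperin, ranged from 0.320 to 1.25, and its chromosome 12 neighbor *Cmpk2* from 0.311 to 0.757. *Parp14* ranged from 0.654 to 1.55 and *Ifi35* from 1.71 to 3.61. The classic interferon markers *Mx1* and *Mx2* reached at most 0.394 and 0.192, *Xaf1* 0.453, and *Ifi44* 0.145, and none of these 4 was tested.

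The guanylate-binding proteins and immunity-related GTPases are typical targets of interferon gamma, and limma called none of the 10 in any comparison, with unadjusted p-values under 0.05 for *Gbp2* in WT and after FAEE-SAP (29.1% and 23% of all genes) and for *Irgm1* in cKO (10.9% of all genes). *Gbp2* had scaled RPKM of 1.06 and 1.58 in WT saline, 2.33 and 2.33 in WT FAEE-SAP, 1.49 and 1.05 in cKO saline, and 1.44 and 0.751 in cKO FAEE-SAP. Both WT FAEE-SAP libraries were above the other 6. The log2 difference was 0.80 for FAEE-SAP against saline in WT (SE 0.33, limma adjusted p = 0.164) and -1.08 for cKO against WT after FAEE-SAP (SE 0.33, limma adjusted p = 0.117). *Gbp7* had 0.664 and 1.09, 0.863 and 0.582, 0.745 and 0.495, and 1.10 and 0.526, with the 4 groups overlapping. *Gbp3* ranged from 0.444 to 1.35, *Gbp4* from 0.168 to 0.631, and *Gbp5*, which reached the minimum for testing only in WT FAEE-SAP, from 0.135 to 0.529.

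*Iigp1*, which disrupts the vacuoles of intracellular parasites, had scaled RPKM of 0.962 and 1.76 in WT saline, 1.62 and 0.900 in WT FAEE-SAP, 0.765 and 0.675 in cKO saline, and 1.55 and 0.690 in cKO FAEE-SAP. *Irgm2* had 0.630 and 1.40, 1.17 and 0.783, 1.06 and 0.441, and 0.920 and 0.647. Neither separated any treatment or genotype except that *Iigp1* was lower in both cKO saline than in both WT saline libraries (log2 difference -0.78, SE 0.44, limma adjusted p = 1). *Irgm1*, a regulator of the other GTPases, ranged from 0.437 to 1.29 and had a log2 difference of 0.82 in cKO (limma adjusted p = 0.407). *Igtp* ranged from 0.355 to 1.26 and *Tgtp1* from 0.246 to 0.847. *Tgtp1* shares 91.4% of its 50-base stretches with other genes, *Tgtp2* above all, and the annotated spans of *Igtp* and *Irgm2* overlap on chromosome 11, so the values of these 3 genes are uncertain.

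Whether FAEE-SAP moved the interferon-stimulated genes of WT pancreas was asked first. None of the 33 members was called by limma, while 7.48% of all genes tested were called. At an unadjusted p-value under 0.05 there were 3 members, *Irf9* and *Gbp2* higher and *Ifi27* lower, against 29.1% of all genes. The log2 fold change was above 0 for 23 members and below 0 for 10, with a median of 0.22 (all genes, 0.01) and a range of -0.82 to 1.45. Without WT saline replicate 1 this median was -0.27, and without WT FAEE-SAP replicate 1 it was -0.10, so its direction rested on single libraries. In this comparison acinar markers were below 0 for 6 of 6 (median -2.05, 5 called by limma). Islet markers were below 0 for 5 of 5 (median -0.86, 1 called). Neutrophil markers were above 0 for 4 of 4 (median 4.30, all called) and leukocyte markers for 3 of 5 (median 0.0058, none called). T and NK markers were below 0 for 5 of 5 (median -0.58) and endothelial markers for 4 of 4 (median -0.16), with none called. Macrophage markers were above 0 for 3 of 6 (median 0.05, none called). The part of these cells in the member values was not tested.

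In cKO pancreas FAEE-SAP gave no call among the 33 members by limma, against 0.135% of all genes. Unadjusted p-values under 0.05 were found for 5 members, *Ifih1*, *Rtp4*, *Irf9*, *Irgm1*, and *Ddx58*, all higher, against 10.9% of all genes. The log2 fold change was above 0 for 30 of 33 members, with a median of 0.45 (all genes, -0.02), and the exceptions were *Isg15*, *Ifit1*, and *Gbp2*. This median stayed between 0.17 and 0.69 when any single library was left out, and was 0.17 without cKO saline replicate 2. In the same comparison 5 of 5 leukocyte markers (median 0.53) and 5 of 6 macrophage markers (median 0.76) were above 0. The same held for 4 of 4 neutrophil (median 1.95), 5 of 5 islet (median 0.35), and 4 of 4 endothelial markers (median 0.36). Fibroblast markers were above 0 for 3 of 4 (median 0.79) and acinar markers below 0 for 6 of 6 (median -0.84). None of these was called by limma, and their part in the member values was not tested.

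Between genotypes after saline, no member was called by limma, with 0% of all genes called, and no member had an unadjusted p-value under 0.05, against 2.63% of all genes. The log2 fold change of cKO against WT was below 0 for 28 of 33 members, with a median of -0.31 (all genes, 0.02). It was 0.05 without WT saline replicate 2 and 0.03 without cKO saline replicate 2. In the same comparison 5 of 5 leukocyte markers (median -0.55) and 5 of 5 T and NK markers (median -0.80) were below 0. So were 4 of 4 endothelial (median -0.19) and 4 of 4 fibroblast markers (median -0.08). Above 0 were 4 of 6 macrophage, 4 of 6 acinar, and 4 of 5 islet markers. None of these was called by limma, and their part in the member values was not tested. *Irf7* had the lowest value (-0.90, SE 0.45, limma adjusted p = 1) and *Isg15* the highest (0.95, SE 0.71, limma adjusted p = 1).

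Between genotypes after FAEE-SAP, no member was called by limma, against 2.65% of all genes. The 3 members with an unadjusted p-value under 0.05 were *Ifi27* and *Bst2*, higher in cKO, and *Gbp2*, lower in cKO, and 23% of all genes met that rule. Of the 33 members 13 were higher and 20 lower in cKO, with a median of -0.15 (all genes, 0.01), which was 0.14 without WT FAEE-SAP replicate 1. Here 6 of 6 acinar markers (median 1.27, 3 called by limma) and 5 of 5 islet markers (median 1.30, 4 called) were above 0. Neutrophil markers were below 0 for 4 of 4 (median -1.95, 1 called, *S100a8*). Leukocyte markers were above 0 for 3 of 5 (median 0.08) and macrophage markers for 5 of 6 (median 0.56). T and NK markers were above 0 for 4 of 5 (median 0.30), and 4 of 5 B and plasma cell markers were below 0. Endothelial and fibroblast markers were above 0 for 4 of 4 each. No further marker was called, and the part of these cells in the member values was not tested. The effect of FAEE-SAP was then compared between genotypes as an interaction. No member was called by limma, against 0.0719% of all genes, and *Ifi27* and *Bst2* had an unadjusted p-value under 0.05, against 12.6% of all genes. The median interaction was 0.17 (all genes, 0.02), which was 0.63 without WT saline replicate 1, 0.55 without WT FAEE-SAP replicate 1, and -0.12 without WT saline replicate 2. The interaction was above 0 for 5 of 5 leukocyte (median 0.52) and 5 of 5 T and NK markers (median 0.80). It was also above 0 for 6 of 6 acinar (median 1.07), 5 of 5 islet (median 1.36), and 5 of 6 macrophage markers (median 0.61). For 4 of 4 neutrophil markers it was below 0 (median -1.81). None of these was called by limma, and their part in the member values was not tested. These 5 comparisons share groups, and their values are therefore not independent of each other.

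**Figure D2:**
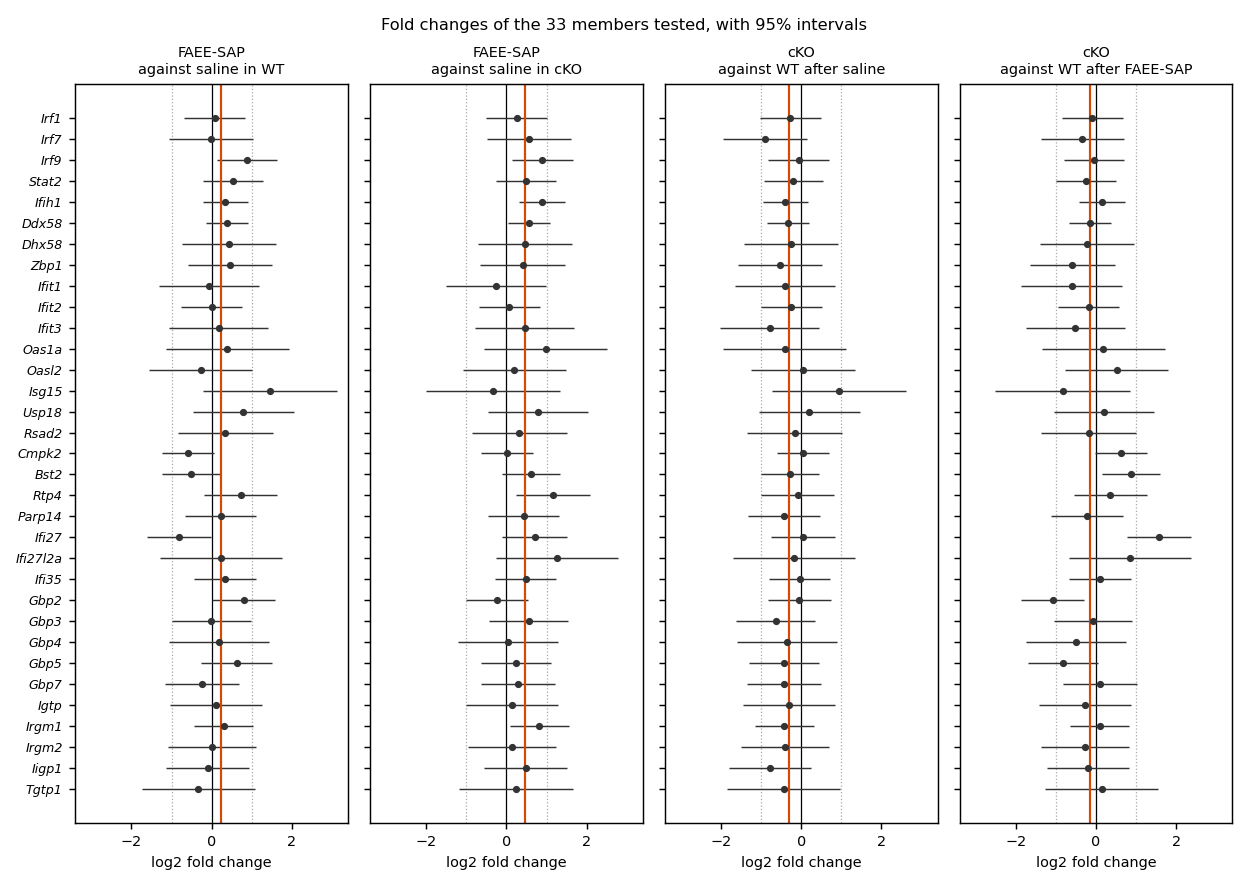
Log2 fold change (x axis) of the 33 members tested (y axis) in 4 comparisons (panels), with 95% intervals from limma as horizontal bars, dotted lines at 2-fold, and the median of the members as an orange line. Medians were 0.22, 0.45, -0.31, and -0.15 from left to right, and most intervals cross 0.

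Libraries of the same group differed in the members as a set. In WT saline, replicate 2 was above replicate 1 for 32 of 33 members, all but *Cmpk2*, by a median of 0.77 on the log2 scale (1.71-fold), whereas 47.5% of all genes were higher in replicate 2. In WT FAEE-SAP, replicate 2 was below replicate 1 for 31 of 33, all but *Rsad2* and *Usp18*, by a median of -0.61 on the log2 scale (48.1% of all genes higher). In cKO saline, replicate 2 was below for 28 of 33 (median -0.39), and in cKO FAEE-SAP for 20 of 33 (median -0.36).

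Markers of leukocytes differed between the same libraries. Summed scaled RPKM of 5 leukocyte markers (*Ptprc*, *Cd52*, *Coro1a*, *Laptm5*, and *Cd53*) was 14.3 and 33.3 in WT saline, 23.5 and 21.6 in WT FAEE-SAP, 17 and 15 in cKO saline, and 35 and 16.1 in cKO FAEE-SAP. Within each group the library with the higher sum also had the higher median of the members. Summed T and NK markers were 4.58 and 8.11, 4.26 and 3.97, 3.92 and 3.43, and 6.93 and 3.25, with the same library higher in each group. That was also so for macrophage markers (70.6 and 87.1, 93.8 and 66.1, 85.3 and 82.2, and 117.6 and 101.3), although 3 of 6 were higher in replicate 2 of cKO saline, and for neutrophil markers (1.16 and 1.93, 57.7 and 52.3, 3.44 and 0.992, and 18.6 and 11.6). Summed B and plasma cell markers were 12.1 and 23.2, 16.9 and 14, 14.4 and 16.1, and 26.8 and 13.7, so in cKO saline they ran opposite to the members. Single markers did not all follow the sums: replicate 2 was the higher for 1 of 5 leukocyte and 2 of 5 T and NK markers in WT FAEE-SAP, and for 1 of 5 and 2 of 5 in cKO saline. *Ptprc*, the leukocyte-defining member of the list, lay between 0.940 and 3.14 and was at 0 in no library. *Siglech*, a marker of the plasmacytoid dendritic cells that make type I interferon, lay between 0.0382 and 0.829. The part of these cells in the member values was not tested, and in bulk tissue fewer cells of a type and less RNA per cell cannot be told apart.

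**Figure D3:**
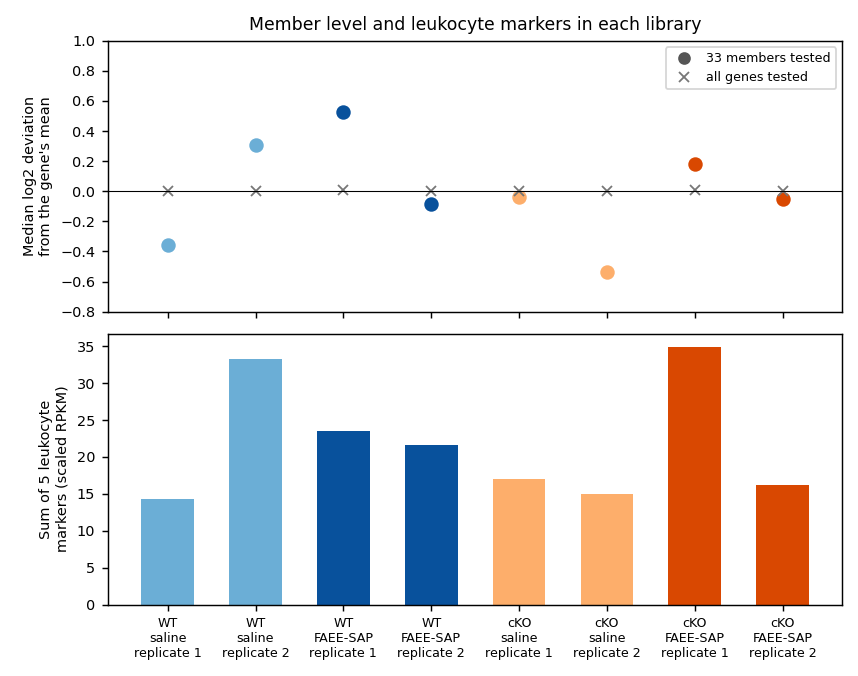
Upper panel, median over the 33 members tested (circles) and over all genes tested (crosses) of the log2 deviation from each gene's mean over the 8 libraries. Lower panel, summed scaled RPKM of 5 leukocyte markers in the same libraries (bars, from 0), with colors for the 4 groups. Member medians run from -0.54 (cKO saline replicate 2) to 0.53 (WT FAEE-SAP replicate 1) while the median of all genes stays at 0 to 0.01, and within each group the library with more leukocyte markers has the higher member median.

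Calls among the members depended on the scaling. The factors were 2.02 and 1.94 for WT FAEE-SAP and under 1.1 for the other 6 libraries, so the deposited RPKM of most genes were higher in WT FAEE-SAP. Summed acinar markers, which include digestive enzyme genes with very many reads, fell from 71710 and 63660 in WT saline to 19170 and 21960 in WT FAEE-SAP, with 5 of 6 genes called lower. On the values as deposited, the median log2 fold change in WT was 1.23 over all genes and 1.44 over the members, and 22 of 33 members were called higher, against 64.7% of all genes called. In cKO, 7 members were called higher on the deposited values, against 6.69% of all genes, where the median of all genes was 0.57 and that of the members 0.99. Between genotypes after FAEE-SAP, 9 members were called lower, against 40% of all genes, with medians of -0.90 and -1.03. On the deposited values limma called no member between genotypes after saline, against 0.0269% of all genes, and 1 member had an unadjusted p-value under 0.05, against 6.66% of all genes. In the interaction it also called none, against 7.11%, and 2 members had an unadjusted p-value under 0.05, against 34.3% of all genes.

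**Figure D4:**
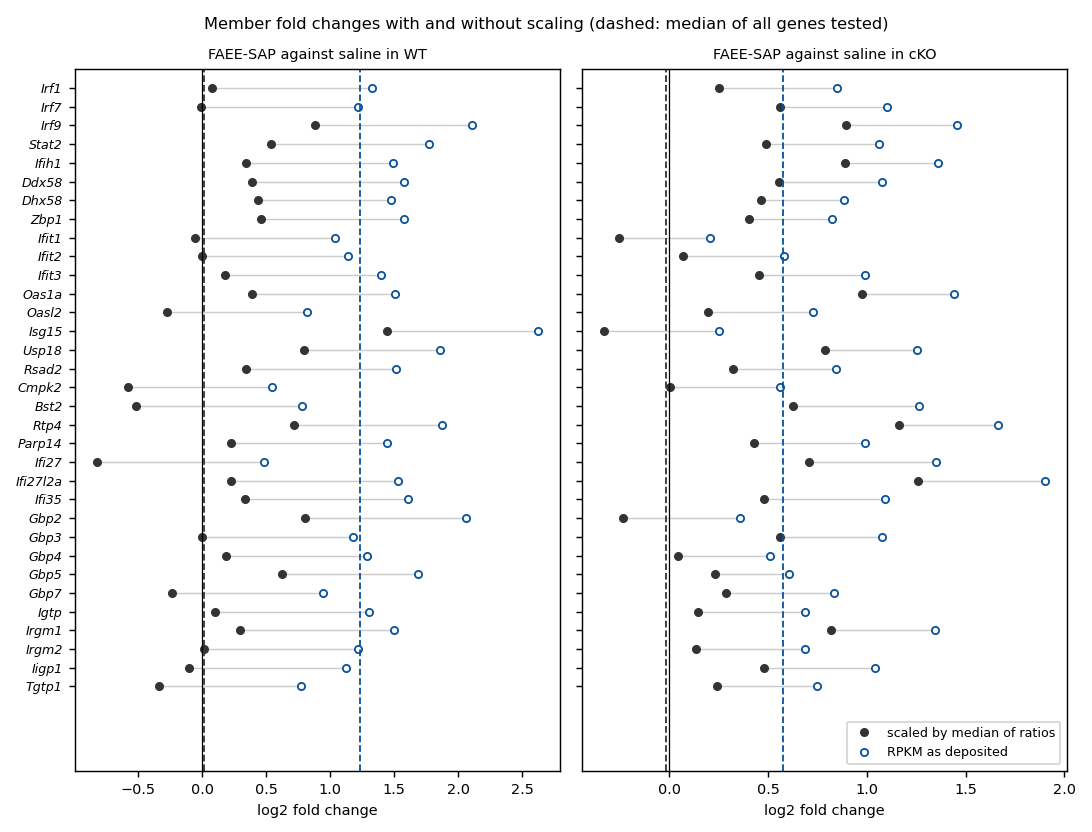
Log2 fold change of FAEE-SAP against saline (x axis) for the 33 members tested (y axis) in WT (left) and cKO (right), on values scaled by the median of ratios (filled circles) and on RPKM as deposited (open circles), with dashed lines at the median of all genes on each scale. The shift between the open and filled points is about that of the dashed lines, from 0.01 to 1.23 in WT and from -0.02 to 0.57 in cKO.

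The ligands upstream of the members were at or near 0. Of 21 interferon genes, 17, among them *Ifnb1*, were listed at 0 in all 8 libraries, and the other 4, *Ifna7*, *Ifnab*, *Ifnz*, and *Ifng*, reached at most 0.251 scaled RPKM, on about 3 reads or fewer. At such counts, no difference between groups was detectable. *Ifng*, the type II ligand, was above 0 in 3 libraries, WT saline replicate 2, cKO saline replicate 1, and cKO FAEE-SAP replicate 1.

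Receptors and kinases of the pathway passed the filter, and none of the 10 was called by limma in any comparison (4, 0, 0, 2, and 0 genes with an unadjusted p-value under 0.05 in the 5 comparisons as ordered above, against 29.1%, 10.9%, 2.63%, 23%, and 12.6% of all genes). Among all genes, 7.48% were called in WT and 2.65% between genotypes after FAEE-SAP, the comparisons of the calls that follow. Of 13 genes listed as inhibitors of the signal, among them *Isg20*, which encodes an exonuclease and is not an inhibitor, *Ptpn2*, a phosphatase of JAK and STAT proteins, was the only gene called, higher in WT FAEE-SAP than in WT saline (log2 fold change 1.61, SE 0.23, limma adjusted p = 0.00828) and lower in cKO than in WT after FAEE-SAP (-1.84, SE 0.23, limma adjusted p = 0.0127). Of 15 genes tested that act in interferon induction, *Myd88*, the adaptor of Toll-like receptors, rose in WT FAEE-SAP (2.13, SE 0.24, limma adjusted p = 0.00395) and was lower in cKO after FAEE-SAP (-1.72, SE 0.24, limma adjusted p = 0.0195), and *Ikbke* was called higher in WT FAEE-SAP (1.15, SE 0.29, limma adjusted p = 0.0490). *Ikbke* reached the minimum for testing only in WT FAEE-SAP, so a difference in that direction was built into its selection.

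A further 62 interferon-stimulated genes outside the 41 were found in the files and 47 were tested. Their medians were 0.24 in WT (all genes, 0.01), 0.55 in cKO (all genes, -0.02), -0.30 between genotypes after saline (all genes, 0.02), -0.10 between genotypes after FAEE-SAP (all genes, 0.01), and 0.32 for the interaction (all genes, 0.02). In cKO, 44 of the 47 were above 0 and 13 had an unadjusted p-value under 0.05, against 10.9% of all genes, and none was called by limma. These genes were read from the same libraries as the members, so their medians are not independent of those of the members. The list was not refitted without single libraries. In WT, 34 of the 47 were above 0, and 2 were called higher, against 7.48% of all genes called in either direction, *Ifitm2* (1.44, SE 0.17, limma adjusted p = 0.00492) and *Slfn9* (1.49, SE 0.36, limma adjusted p = 0.0433). *Slfn9* had only 1 library at the minimum for testing outside WT FAEE-SAP, so its selection favored that direction. After FAEE-SAP, where 2.65% of all genes were called, *Ifi27l2b*, next of kin to *Ifi27l2a*, was called higher in cKO (4.20, SE 0.68, limma adjusted p = 0.0288), where it had 4.12 and 5.64 scaled RPKM, against 0.256 and 0.101 in WT. It was also uneven within cKO saline, at 1.52 and 0.350. Of neutrophil markers, 4 of 4 tested were called higher in WT FAEE-SAP by limma, although *Cxcr2* had only 1 library at the minimum for testing outside that group.

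Members with and without the response element core were set side by side as a description. In WT the median log2 fold change was 0.30 for the 17 tested members with the core and 0.00144 for the 7 with a promoter in the table but without the core. In cKO the medians were 0.32 and 0.25. Between genotypes after saline they were -0.40 and -0.06, and after FAEE-SAP -0.18 and -0.05. In the interaction they were 0.165 and 0.175, with 11 of 17 and 7 of 7 above 0. The ranges of the members with and without the core overlapped in every comparison.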

How the data were processed

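RNA-Seq of mouse pancreas (4 groups of 2 libraries) was analysed from the RPKM values that the authors deposited for 48709 genes per library. Per the study's methods, libraries came from a directional kit, and paired reads were filtered with fastp and mapped to GRCm38.p6 with CLC Genomics Workbench. How RPKM were computed, and whether strand was used, is not given in the sources used here. Members and gene lists were chosen with earlier results of these data known, and serve as description only.

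Library totals were recovered from low values and exonic lengths of GENCODE vM21 (GRCm38), to which 46325 symbols (95.1%) matched: 84.5% to 85.8% of values under 20 reads were whole within 0.1 reads. Reads per gene are approximate, since they summed to 100.3% to 105.7% of the totals, and RPKM limits precision for low genes.

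A gene was tested if 2 or more of the 8 libraries had RPKM of 0.5 or above. Values were scaled by the median of ratios over genes above 0 in all libraries, transformed as log2(scaled RPKM + 0.1), and fitted over all 8 libraries with limma 3.58.1 (R 4.3.3, intensity trend), which was tested on simulated data. A fold change on this scale understates changes of low genes. Calls needed a Benjamini-Hochberg adjusted p-value under 0.05 over all genes tested and a 2-fold difference or more. The filter could be passed through 1 group: 5 tested members had fewer than 2 libraries at the minimum outside WT FAEE-SAP. Nothing states that same-numbered libraries belong together. Named with values in every library were the 2 members of each functional group with the highest mean. Alternatives were other scalings, pseudocounts, filters, thresholds, a replicate block, and leaving out each library. Sharing of sequence was measured as 50-base stretches of each member's longest coding transcript found in transcripts of other genes. The plasmacytoid dendritic list was read by *Siglech* alone, since *Klk1* in it is abundant in the exocrine pancreas. Values of 1 gene of the pathway are not reported here.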

Additional observations from a re-analysis of the deposited data

How the results depend on the processing

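No member was called in any of the 5 comparisons under the planned settings other than those named next. On the values as deposited 22 members were called in WT, 7 in cKO, and 9 between genotypes after FAEE-SAP, with medians of 1.44, 0.99, and -1.03. The median interaction was -0.48 on those values. That of all genes moved from 0.02 to -0.63, so the members' median was above it on either scale. There *Ifi27* in WT (0.49) and *Bst2* after FAEE-SAP (-0.083) changed sign, while the medians of all genes moved from 0.01 to 1.23 and from 0.01 to -0.90, so *Ifi27* stayed below and *Bst2* above them. With RPKM of at least 2 required, 1 member was called after FAEE-SAP (4.15% of all genes), and *Ifih1*, *Irgm1*, *Ddx58*, and *Rtp4* could not be fitted. By unadjusted p and 2-fold, 1 member was called in cKO (3.29% of all genes), 2 after FAEE-SAP (7.87%), and 2 in the interaction (7.02%). Leaving out single libraries gave medians of -0.27 to 0.56 in WT and -0.12 to 0.63 for the interaction, with 0 members called each time by limma. The replicate block called 0 members in each comparison, with all medians as before (0.22 in WT). Correlations of same-numbered deviations ran from -0.522 to 0.399, and they cannot show whether same-numbered libraries were handled together. An exchange of the WT saline numbers, chosen after seeing the data, called 1 member in WT (10.7% of all genes) and 2 after FAEE-SAP (6.56%). It was picked from the deviations that such a block removes, so these calls support nothing. Among recomputed values, 410 kept their direction and side of the threshold or moved by less than the spread between replicates, and 29 did not. That spread was 0.37 on the log2 scale for a median, so a median could change sign and still count among the 410. The median in WT did so without WT FAEE-SAP replicate 1. Counts that stayed at 0 members called are also among the 410. Of 328 member values, 58 rested on fewer than 20 reads, and the cause of the dependence on settings was not tested.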
